A study of Mus musculus with 16 samples.

Results

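The acetylated promoters described here carried H3K27Ac in ES cells of both sexes, XX and XY, and had no H3K4Me1 region over them in either sex. H3K27Ac regions of the female and the male list on the 19 autosomes were merged where they overlapped, which gave 29351 stretches, of which 21475 held H3K27Ac of both lists. A transcription start site (TSS) of a protein-coding gene lay in 9193 of those, and 459 of the 9193 (4.99%, exact binomial 95% interval 4.56 to 5.46) overlapped no H3K4Me1 region by even 1 bp. The members were thus chosen on the H3K27Ac and H3K4Me1 lists themselves, so values of these marks at the members are a description. The other 8734 acetylated promoters, with H3K4Me1 in both lists (8015), in the female list alone (351) or in the male list alone (368), are the set they are read against. H3K27Me3 and base composition played no part in the choice, and of the gene annotation only the positions of protein-coding TSSs were used.

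The chromatin came from ES lines of C57BL/6 x CAST/EiJ hybrid embryos, 2 female (BCF3, BCF4) and 2 male (BCM1, BCM2), cultured in serum with LIF over inactivated fibroblast feeders of both sexes that were depleted before harvest, at passages 7 to 10. The 16 libraries are 1 per line and mark plus an IgG and an input library per sex, yet each sex and mark is represented by a single list of regions without heights, counts or scores. What can be measured is therefore where a region lies and how wide it is, the read depth behind it is unknown, and the spread between lines of a sex cannot be seen. The intervals given below cover counting alone and treat promoters as the units, although promoters are not replicates of a sex. All regions start on a 200 bp grid and end 1 bp before a grid line, so a width such as 1999 bp stands for a whole number of grid steps. ES cell identity was visible in the lists, as 12 of 12 ES cell marker genes had an acetylated promoter, against 1 of 14 fibroblast markers and 0 of 16 germline genes. Among all autosomal protein-coding genes, 10192 of 21418 had one.

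Acetylation of lysine 27 of histone H3 is deposited by p300 and CBP at active promoters and enhancers. Monomethylation of lysine 4, deposited mainly by Mll3 and Mll4, is the usual mark of enhancers and of the flanks of active promoters, whose centre is instead trimethylated at that lysine (a mark not analysed here). H3K27Me3 is placed by Polycomb repressive complex PRC2, mostly at CpG-rich promoters of silent developmental genes, and a single lysine 27 cannot hold both an acetyl and a methyl group. Regions of both marks at the same place in a bulk sample therefore come from different histone tails, alleles or cells, which cannot be told apart here.

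Sequences just upstream of 9 member genes show the range of promoters in the set. They were picked after their values were seen, and each is the 250 bases before the annotated 5′ end of the gene, read 5′ to 3′ on the strand of the gene from the NCBIM37 (mm9) assembly, without any annotated exon. Capitals mark matches on either strand to 9 short motifs. These were the Sp1 box GGGCGG, the Ets box CCGGAAG, the CCAAT box CCAAT, the Nrf1 box GCGCATGC, the cAMP response element TGACGTCA, the E-box CACGTG, the Yy1 box AAGATGGC, the Zbtb33 box CTCGCGAG and the TATA box TATAAA. Matches that overlap run together as 1 stretch of capitals. Med6, Med30 and Taf2 are CpG-rich promoters of the general transcription machinery with no H3K27Me3 over them. Med6 and Med30 encode subunits of Mediator, which bridges activators and RNA polymerase II, and Taf2 a subunit of TFIID, which binds core promoters. The windows lie at chr12:82695996-82696245 on the minus strand (Med6), chr15:52543750-52543999 on the plus strand (Med30) and chr15:54903708-54903957 on the minus strand (Taf2).
Med6: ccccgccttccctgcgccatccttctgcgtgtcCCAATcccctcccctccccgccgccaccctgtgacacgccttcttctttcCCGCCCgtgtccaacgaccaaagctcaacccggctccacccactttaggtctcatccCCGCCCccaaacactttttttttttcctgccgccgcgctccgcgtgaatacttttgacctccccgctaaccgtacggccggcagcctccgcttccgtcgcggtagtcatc
Med30: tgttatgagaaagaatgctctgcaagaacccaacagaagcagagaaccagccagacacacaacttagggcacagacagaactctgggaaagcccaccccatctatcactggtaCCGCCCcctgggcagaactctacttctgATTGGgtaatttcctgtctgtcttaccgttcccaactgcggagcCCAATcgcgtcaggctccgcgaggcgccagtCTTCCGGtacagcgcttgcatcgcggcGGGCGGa
Taf2: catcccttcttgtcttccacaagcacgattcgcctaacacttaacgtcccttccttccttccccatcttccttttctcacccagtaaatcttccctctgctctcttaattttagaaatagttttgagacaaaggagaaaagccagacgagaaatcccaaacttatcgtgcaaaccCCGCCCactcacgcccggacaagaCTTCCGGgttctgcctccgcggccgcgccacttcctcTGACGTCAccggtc
Med6 had 24 CpG dinucleotides in these 250 bases, Med30 14 and Taf2 15. Sp1 boxes were found 2 times at Med6, 2 times at Med30 and 1 time at Taf2, and the Ets box 1 time each at Med30 and Taf2.

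Tada1 and Bmp2k are CpG-rich promoters that lay under H3K27Me3 from end to end in both lists. Tada1 encodes a subunit of the SAGA acetyltransferase complex and Bmp2k a protein kinase. Zfp334, a zinc finger gene, is the promoter where H3K27Ac was widest in the male list relative to the female list. The windows lie at chr1:168308978-168309227 on the plus strand (Tada1), chr5:97426458-97426707 on the plus strand (Bmp2k) and chr2:165213760-165214009 on the minus strand (Zfp334).
Tada1: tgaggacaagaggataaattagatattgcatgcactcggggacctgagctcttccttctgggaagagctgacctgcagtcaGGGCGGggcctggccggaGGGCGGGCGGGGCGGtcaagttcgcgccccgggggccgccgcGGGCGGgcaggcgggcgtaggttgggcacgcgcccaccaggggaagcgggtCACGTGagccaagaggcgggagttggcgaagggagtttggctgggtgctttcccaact
Bmp2k: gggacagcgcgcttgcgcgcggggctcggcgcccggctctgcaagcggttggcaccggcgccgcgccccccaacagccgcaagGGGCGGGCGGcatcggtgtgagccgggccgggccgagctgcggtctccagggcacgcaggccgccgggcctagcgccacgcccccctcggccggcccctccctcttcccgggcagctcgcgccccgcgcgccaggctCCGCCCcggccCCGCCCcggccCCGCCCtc
Zfp334: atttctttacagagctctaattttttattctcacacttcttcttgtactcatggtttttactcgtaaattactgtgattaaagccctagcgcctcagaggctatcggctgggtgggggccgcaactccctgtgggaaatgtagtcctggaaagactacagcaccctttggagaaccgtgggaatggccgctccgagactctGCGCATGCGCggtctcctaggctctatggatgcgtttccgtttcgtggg
Tada1 had 21 CpG dinucleotides and 5 Sp1 boxes, and Bmp2k 39 and 5. Zfp334 had 13 CpG dinucleotides, no Sp1 box and a pair of overlapping Nrf1 matches, since the motif and its reverse complement share most of their letters.

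Zfp418, Cyp2c40 and Olfr52 stand for the CpG-poor members. Zfp418 is a zinc finger gene, Cyp2c40 encodes a cytochrome P450 of the Cyp2c cluster and Olfr52 an olfactory receptor. The windows lie at chr7:7123791-7124040 on the plus strand (Zfp418), chr19:39887305-39887554 on the minus strand (Cyp2c40) and chr2:86022267-86022516 on the minus strand (Olfr52). The acetylated stretch at Zfp418 began 40 bases before the gene, so most of its window lies outside the stretch.
Zfp418: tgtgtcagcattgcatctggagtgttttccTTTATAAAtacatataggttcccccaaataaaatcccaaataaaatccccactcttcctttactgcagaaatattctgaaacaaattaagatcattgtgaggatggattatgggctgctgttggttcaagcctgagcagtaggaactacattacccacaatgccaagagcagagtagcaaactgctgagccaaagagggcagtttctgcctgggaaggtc
Cyp2c40: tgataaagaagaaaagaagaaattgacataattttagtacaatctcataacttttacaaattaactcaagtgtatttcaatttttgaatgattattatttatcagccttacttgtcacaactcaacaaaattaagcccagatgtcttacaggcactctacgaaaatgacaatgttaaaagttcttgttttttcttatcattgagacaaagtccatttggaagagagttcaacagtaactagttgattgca
Olfr52: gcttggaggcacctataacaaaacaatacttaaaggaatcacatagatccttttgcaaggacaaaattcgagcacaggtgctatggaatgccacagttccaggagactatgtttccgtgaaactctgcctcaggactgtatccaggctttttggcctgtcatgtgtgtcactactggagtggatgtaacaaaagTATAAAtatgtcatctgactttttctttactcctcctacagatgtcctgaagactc
CpG dinucleotides numbered 0 at Zfp418, 1 at Cyp2c40 and 2 at Olfr52. TATA boxes were found 2 times at Zfp418 (overlapping matches of both strands), 1 time at Olfr52 and 0 times at Cyp2c40.

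H3K27Ac was narrow at the members. The median width of a stretch was 2199 bp (quartiles 1799 and 2899), against 5399 bp (3399 and 9399) at promoters with H3K4Me1. In the female list the median was 1799 bp at members and 4399 bp at the others, and in the male list 1999 and 4599 bp. Stretches under 2 kb made up 206 of 459 members (44.9%), those of 2 to 4 kb another 221, those of 4 to 8 kb 27, and those over 8 kb 5. Only 5.74% of the others were under 2 kb. Because a wide stretch offers more bases for an H3K4Me1 region to touch, the rule itself favours narrow stretches. The difference is therefore a description, and how much of it comes from the rule was not tested.

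**Figure D1:**
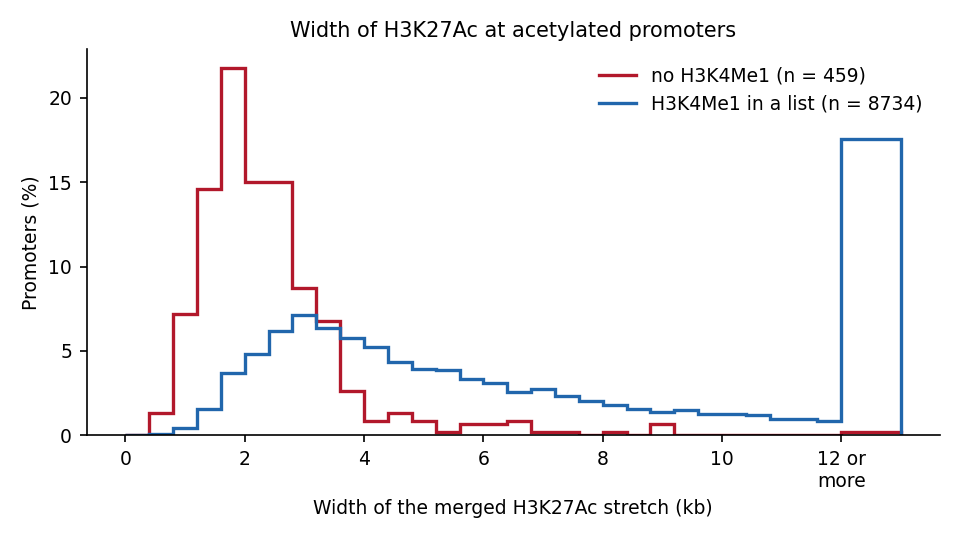
Share of acetylated promoters (y axis, %) by the width of the merged H3K27Ac stretch (x axis, kb, bins of 0.4 kb, with all stretches from 12 kb in the last bin). The 459 members (red) peak near 2 kb with a median of 2199 bp, and the 8734 promoters with H3K4Me1 (blue) spread to far wider stretches with a median of 5399 bp.

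The widest member was Cyp2c40, where the stretch reached over 12399 bp, 12199 bp of it under H3K27Ac in the female list and 11799 bp in the male list. Nearly all of it, 11495 bases, lay upstream of the annotated 5′ end. Next came the divergent pair Kctd19/Lrrc36 (9199 bp), Usp14 and Olfr52 (8999 bp each) and Cyp2c67 (8199 bp). Usp14 encodes a deubiquitinating enzyme of the proteasome. At Kctd19/Lrrc36 the female list covered 9199 bp and the male list 4799 bp. At Olfr52 the order was the other way round, with 4799 bp in the female list and 6799 bp in the male list. H3K27Ac of the male list covered no TSS at Kctd19/Lrrc36 and Olfr52, and that of the female list none at Cyp2c67. Among the 32 members of 4 kb or wider, 13 were CpG-rich (40.6%, 23.7 to 59.4), compared with 64.9% of the other promoters of that width. The narrowest members, Gm9847, Gm10736, Amd-ps3 and Gm10071, spanned 599 bp each, and Cep72, a centrosomal protein gene, 799 bp. Between 21.1% and 62.4% of the 50-base windows of the 4 stretches of 599 bp occurred at a single place in the genome, a measure taken up below.

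Female and male lists gave similar extents of H3K27Ac at most members. The female region was the wider at 175 members (38.1%), the male at 221 (48.1%), and 63 were equally wide (13.7%). Over all acetylated promoters these shares were 43.8%, 48.8% and 7.32%. The median female to male ratio at members was 1 (quartiles 0.765 and 1.18). Start and end were identical in both lists at 40 members (8.71%), compared with 2.86% of the other promoters, whose stretches are wider. A TSS lay under H3K27Ac in both lists at 442 members (96.3%), in the female list alone at 8 (1.74%) and in the male list alone at 9 (1.96%). Over all acetylated promoters these shares were 97.15%, 1.29% and 1.56%. Ratios above 2 were rare in either direction, 15 members (3.27%) with the wider region in the female list and 18 (3.92%) in the male list. Over all acetylated promoters the shares were 2.63% and 4.42%.

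The members that departed most from equal width included genes of basic cell function. Mcmbp, which encodes a binding partner of the MCM helicase, had 2799 bp in the female list and 399 bp in the male list. The TSS in this stretch was not covered in the male list. It is a downstream TSS, and the stretch did not hold the 5′ end of Mcmbp. Zfp759 had 1799 and 599 bp, and its TSSs were not covered in the male list either. Gm9590 had 4599 and 1599 bp, and Pet112l, a mitochondrial amidotransferase subunit, 2799 and 999 bp. In the opposite direction, Zfp334 had 599 bp in the female list and 2599 bp in the male list, and Gm9762 399 and 1599 bp. The TSS of Gm9762 was not covered in the female list. Rpap3, a cochaperone in RNA polymerase assembly, had 999 and 3599 bp, Taf2 799 and 2599 bp, and Exoc3, an exocyst subunit, 999 and 2599 bp. With 1 list per sex, whether such ratios exceed the spread between lines could not be tested.

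Most members had no H3K4Me1 region of either list within 10 kb of the stretch. The rule keeps H3K4Me1 off the members, and its distance from other places in the genome was not measured. These distances are therefore a description. The nearer of both lists lay a median of 26201 bp away (quartiles 8401 and 65201), 32201 bp in the female list and 34801 bp in the male list. Only 7 members had an H3K4Me1 region within 1 kb, 71 within 5 kb, 128 within 10 kb and 316 within 50 kb. Over the gene bodies, H3K4Me1 of either list was found at 200 of the 500 genes that start in members (40.0%, 35.7 to 44.4). It was found at 99.1% of the 9723 genes that start in the other promoters, a value raised by the rule, since those stretches extend into the genes.

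Near the boundary of the rule, Eml5, a microtubule-associated protein gene, had H3K4Me1 of both lists abutting its stretch at a gap of 1 bp. Rnaset2b, a ribonuclease gene, lay 1001 bp from female and 601 bp from male H3K4Me1, Stx6, a SNARE of the trans-Golgi, 1201 and 801 bp, and Galnt4/Poc1b 5201 and 801 bp. Just outside the rule, 10 promoters had at most 200 bp of H3K4Me1. Of the 5 with the least, Fam33a/Prr11, Wdfy2, Ap4b1/Dclre1b and BC005561 were touched in the male list alone, with the female H3K4Me1 2601 to 7001 bp away, and Tbc1d4 in the female list alone, with the male H3K4Me1 2801 bp away. At the other end stood Gbe1, the glycogen branching enzyme gene, which lay 1877801 bp from female and 1711601 bp from male H3K4Me1. Gm9726, Olfr52, 2700089E24Rik and Gm3164 followed, with at least 731001 bp to the nearer list.

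Other H3K27Ac lay farther from the members than from the other acetylated promoters. The next H3K27Ac stretch was a median of 37001 bp away (quartiles 16001 and 72301), compared with 8001 bp (2601 and 21001) at the other promoters. Under 4 kb of width, where the sets are closer in extent, the medians were 37601 and 14001 bp. The stretch reached less far on both sides of the gene start. Among promoters under 4 kb, it held a median of 877 bases before and 1203 bases after the outermost TSS of a member gene, against 1181 and 1621 bases at the others.

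**Figure D2:**
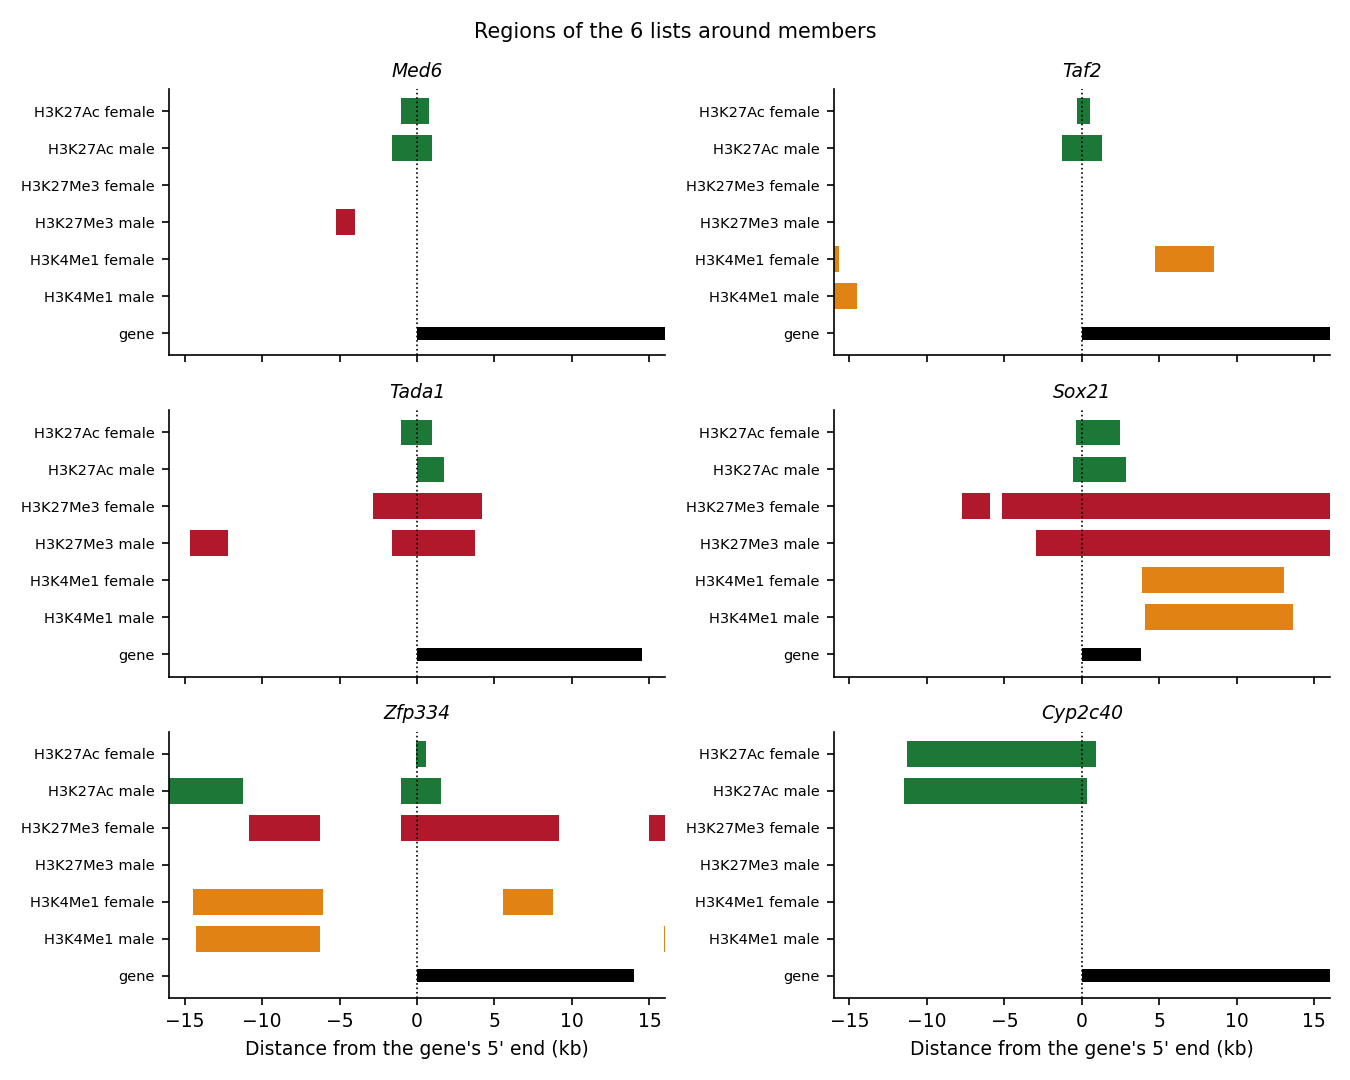
Regions of the female and male H3K27Ac (green), H3K27Me3 (red) and H3K4Me1 (orange) lists and the gene (black) around 6 members, by distance from the annotated 5′ end (x axis, kb, in the direction of transcription, cut at 16 kb on both sides). H3K27Ac sits at the 5′ end of Med6, Taf2, Tada1, Sox21 and Zfp334 with no H3K4Me1 over it, H3K27Me3 of both lists covers Tada1 and Sox21, H3K27Me3 of the female list alone covers Zfp334, and the stretch at Cyp2c40 lies almost wholly upstream.

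H3K27Me3, which was independent of the choice of members, was found at fewer members than other acetylated promoters. A region of the female list overlapped 79 of 459 members (17.2%, 13.9 to 21.0), where 26.4% of all 9193 acetylated promoters were overlapped. The male list overlapped 68 (14.8%, 11.7 to 18.4) against 21.7%. Either list overlapped 93 members (20.3%, 16.7 to 24.2) against 30.2%, and both lists 54 (11.8%, 8.96 to 15.1) against 17.8%. At promoters with H3K4Me1 the shares were 26.8% in the female list, 22.1% in the male list and 30.8% (29.8 to 31.7) in either, outside the intervals of the members. Among promoters of like width the difference was similar below 4 kb. The shares were 18.4% of members and 29.7% of the others under 2 kb, and 22.2% and 33.2% at 2 to 4 kb. At 4 kb or wider they were 18.75% of 32 members (7.21 to 36.4) and 29.7% of the others. There the interval of the members included the share of the others. Within 2 kb of a TSS, a window equal for all promoters, H3K27Me3 of either list was found at 23.1% of members (19.3 to 27.2) and 30.2% of the others (29.2 to 31.2). Where H3K27Me3 had to cover at least 50% of the stretch, however, the shares were 12.0% and 14.1%, so that the members and the others lay closer together.

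The difference was widest among CpG-poor promoters. A promoter was called CpG-rich where the 300 bases around its TSSs (250 before, 50 after) had a median CpG observed over expected ratio of at least 0.6 and a GC content of at least 50%. Among the 131 CpG-poor members, 10 carried H3K27Me3 in either list (7.63%, 3.72 to 13.6), compared with 28.5% (26.8 to 30.3) of 2621 CpG-poor promoters with H3K4Me1. The corresponding shares among CpG-rich promoters were 25.3% (20.7 to 30.4) of 328 and 31.7% (30.6 to 32.9) of 6113. Under 4 kb, the CpG-poor shares were 7.14% of 112 and 30.0% of 663, and the CpG-rich shares 25.1% and 33.4%. The CpG-poor sets differed in other ways as well. A gene 5′ end lay in 87.0% of CpG-poor members and 68.0% of the CpG-poor others. Only genes named by a Gm number or a Rik clone started in 22.9% and 8.78%. The part of these differences in the H3K27Me3 shares was not tested. Within the members, those with H3K27Me3 had a median CpG ratio of 0.831 (quartiles 0.725 and 0.977) and were CpG-rich in 83 of 93 cases (89.2%), whereas those without had 0.752 (0.584 and 0.879) and were CpG-rich in 66.9% of 366. Their widths had the same median, 2199 bp.

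**Figure D3:**
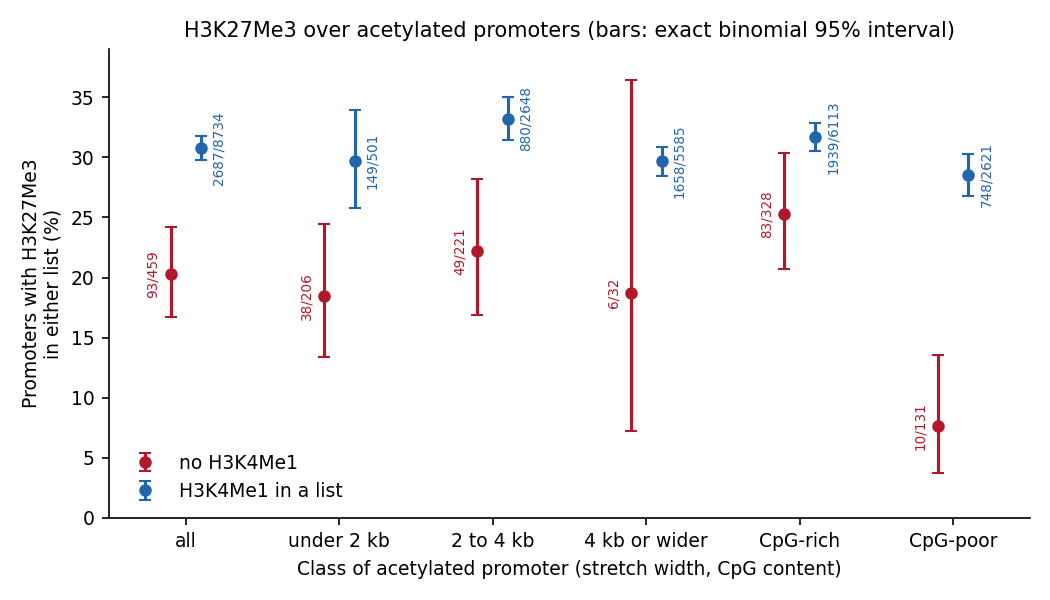
Share of acetylated promoters overlapped by H3K27Me3 of either list (y axis, %) for members (red) and promoters with H3K4Me1 (blue), for all and by stretch width or CpG content (x axis). Points are shares with their counts, and bars exact binomial 95% intervals. The lowest share is that of CpG-poor members, 7.63%, against 28.5% at CpG-poor promoters with H3K4Me1.

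Of the 93 members with H3K27Me3 in a list, 20 were covered whole in both. Among them was Sox21, which encodes a neural transcription factor of the SoxB group, with 3399 of 3399 bp in both lists and H3K4Me1 starting 1001 bp (female) and 1201 bp (male) beyond the stretch. Prom1, paired with Gm16401, encodes a membrane glycoprotein of stem and progenitor cells and was covered over all 2999 bp. Fzd6, a Frizzled receptor for Wnt ligands, was covered over 2799 bp in both lists, as were Tada1 and Ube2j1, an E2 enzyme of protein degradation at the endoplasmic reticulum. Ahrr, a repressor of the aryl hydrocarbon receptor, was covered over 3199 bp, but its stretch did not hold the 5′ end of the gene and its CpG ratio was 0.0571. Bmp2k and Gm3164 were covered over 2599 bp each. The largest overlap was at Bin1, a gene of membrane curvature, with 4399 of 4399 bp in the female list and 4199 bp in the male list, and Hivep2, a zinc finger transcription factor gene, had 2199 and 2998 of 4399 bp.

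H3K27Ac at these 10 promoters spanned 1399 to 3999 bp in the female list and 1799 to 4399 bp in the male list, where the quartiles of all members were 1399 and 2399 bp (female) and 1399 and 2599 bp (male). They were ordered by the bases of H3K27Me3 in their stretch, which favours wide stretches, and Bin1, Sox21, Ahrr and Hivep2 lay above the upper quartile in both lists. H3K27Ac spanned 3599 and 3199 bp at Bin1, 2799 bp in each list at Ahrr, and 3999 and 4399 bp at Hivep2. At Sox21 it spanned 2799 bp in the female list and 3399 bp in the male list, at Fzd6 1999 and 2599 bp, at Tada1 1999 and 1799 bp, and at Ube2j1 1399 and 2799 bp. Further members with H3K27Me3 were picked after their values were seen, as single examples that stand for no gene group. Smo, the transducer of Hedgehog signals, carried 2199 bp of H3K27Me3 in the female list and 1398 bp in the male list. Gli3, a transcription factor of the same pathway, carried none in the female list and 1199 bp in the male list. Tgfbr1, a receptor of TGF-beta, had 1799 and 599 bp. Cdkn2a, an inhibitor of cyclin-dependent kinases, had its whole 1999 bp under H3K27Me3 in both lists, and its relative Cdkn2c 999 and 799 of 1799 bp. Lin28b, which blocks let-7 maturation, had 1799 and 1999 of 1999 bp. Ppp3ca, a catalytic subunit of calcineurin, had 2999 bp and Tnfaip3, which restrains NF-kappaB signalling, 2799 bp in the female list, and neither had any in the male list. Over all 93 members with the mark, 54 carried it in both lists.

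Where H3K27Me3 overlapped a member, it covered a median of 81.8% of the stretch in the female list (79 members) and 47.7% in the male list (68 members). Female H3K27Me3 alone was found at 25 members (5.45%) and male alone at 14 (3.05%). The shares were 8.70% and 3.92% of the other promoters (760 and 342), and 8.54% and 3.87% of all acetylated promoters. The female H3K27Me3 list is the longer, with 18270 autosomal regions against 14977. At Zfp334 the female list held H3K27Me3 over all 2599 bp and the male list none, the nearest being 15201 bp away, while H3K27Ac was 599 bp wide in the female list and 2599 bp in the male list. Zeb1, a transcription factor of epithelial to mesenchymal transition that shares its stretch with Gm10125, had the reverse order, with the nearest H3K27Me3 of the female list 222601 bp away and 1399 bp of it in the male list. Its H3K27Ac was 3599 bp wide in the female list and 2799 bp in the male list. Other members had the wider H3K27Ac in the list that held H3K27Me3. Gpr125 had 2599 bp of H3K27Me3 in the female list alone, with 2599 bp of H3K27Ac in the female list and 2199 bp in the male list. Dfnb59/Prkra had 999 bp of H3K27Me3 in the male list alone, with 1399 and 2199 bp of H3K27Ac. How often each order occurred was not counted. Where H3K27Me3 did not overlap a member, the nearest region lay a median of 77901 bp (female) and 96401 bp (male) away. None of these differences between the sexes could be tested with 1 list each.

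Base composition set the members apart from promoters at large, but not from other acetylated promoters. The median CpG observed over expected ratio was 0.774 (quartiles 0.617 and 0.903) at members, 0.775 (0.568 and 0.916) at promoters with H3K4Me1 and 0.544 (0.219 and 0.816) at the 5′ ends of all 21418 autosomal protein-coding genes. CpG-rich promoters made up 71.5% of members (67.1 to 75.6), 70.0% of the others and 42.8% of all 5′ ends. Wide acetylated promoters are CpG-poor more often than narrow ones, so within a width class the order changed. CpG-rich promoters were 73.8% (69.3 to 77.9) of members and 78.9% (77.5 to 80.4) of the others under 4 kb, and the interval of the members fell short of that of the others under 2 kb, with 68.9% (62.1 to 75.2) and 79.2% (75.4 to 82.7).

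**Figure D4:**
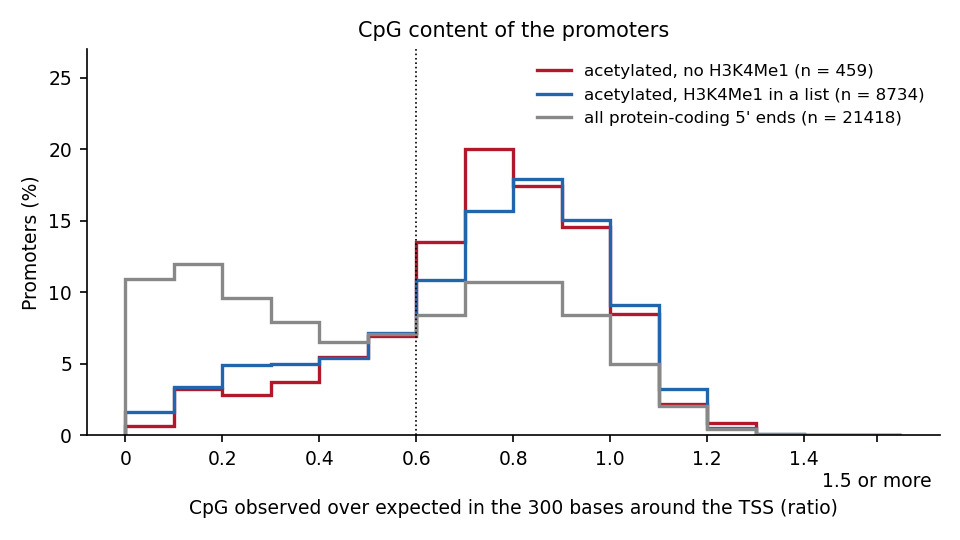
Share of promoters (y axis, %) by the CpG observed over expected ratio in 300 bases around the TSS (x axis, bins of 0.1, all ratios from 1.5 in the last bin, dotted line at the CpG-rich limit of 0.6). Members (red) and acetylated promoters with H3K4Me1 (blue) follow nearly the same curve with medians of 0.774 and 0.775, and the 5′ ends of all protein-coding genes (grey) add a mass of low ratios.

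The 9 short motifs were searched on both strands in the 300 bases around the outermost TSS of each gene and stretch, 506 windows at members and 10596 at the others. A match says only that the letters are present. The Ets box, bound by Ets factors such as Gabpa, was found in 23.5% of member windows (19.9 to 27.5), 18.5% of the others (17.7 to 19.2) and 10.9% of all 5′ ends. Under 4 kb its shares were 24.2% and 22.0%, with overlapping intervals. The Sp1 box was found in 58.3% and 60.3%, against 43.7% of all 5′ ends, and the CCAAT box in 38.3% of both sets. The TATA box was found in 9.68% of member windows (7.25 to 12.6), 6.80% of the others (6.33 to 7.30) and 13.5% of all 5′ ends, and the intervals of members and others met at the edge. The Nrf1 box (5.93% and 5.47%), the cAMP response element (4.15% and 3.41%), the E-box (8.30% and 10.2%), the Yy1 box (4.94% and 5.01%) and the Zbtb33 box (2.57% and 1.96%) had overlapping intervals.

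Several protein-coding genes started in 46 of 459 member stretches (10.0%, 7.43 to 13.1), compared with 18.2% of the others, whose stretches are wider. A divergent pair of TSSs within 1 kb was present at 32 members (6.97%, 4.82 to 9.70) and 10.8% (10.1 to 11.4) of the others, and under 4 kb the shares were 7.03% (4.79 to 9.88) and 10.6%. In both cases the interval of the members lay below the share of the others. In finer width classes it included that share, with 5.83% (3.05 to 9.95) of members and 7.58% of the others under 2 kb, and 8.14% (4.90 to 12.6) and 11.1% at 2 to 4 kb. Examples of divergent pairs were Cept1/Dram2, whose starts lie 25 bp apart, Gpatch2/Spata17 (43 bp), Eaf2/Golgb1 (137 bp) and Gpr137c/Txndc16 (294 bp). Cept1 encodes a phospholipid synthesis enzyme and Golgb1 the golgin giantin. Cept1/Dram2 also had the most TSSs among these, 16, within 2799 bp of female and 2999 bp of male H3K27Ac. The 5′ end of a gene lay in 423 members (92.2%) and 86.9% of the others, and the remaining 36 members held downstream TSSs alone.

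Genes that start in members were longer. Their median length was 35492 bp (order-statistic 95% interval 30175 to 41119, n = 500), compared with 21524 bp (20825 to 22244, n = 9723). Under 4 kb of acetylation the medians were 35816 bp (30718 to 41745) and 28530 bp (27160 to 30058), so the intervals still did not meet. The number of annotated transcripts per gene had a median of 3 in both sets.

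Genes named only by a Gm number or a Rik clone, which are gene models without an assigned name, made up 82 of 500 member genes (16.4%, 13.3 to 19.9) and 8.80% of the others. Sequence copies were examined with 50-base windows, the read length given in the study's methods. Under 50% of the windows within 500 bases of the first TSS of the stretch occurred at a single place in the assembly at 27 members (5.88%, 3.91 to 8.44) and 107 of the others (1.23%, 1.01 to 1.48). Under 90% did so at 71 members (15.5%) and 5.62% of the others. Over the whole stretch, 36 members fell below 50%, among them Gm3164 (33.0%), Gm9726 (12.2%) and Rnaset2b (39.3%), and Cyp2c40 stood at 60.6%. The share was 0% around the TSS and over the whole stretch at Gm8923, Gm4245, Gm14436, Gm14306 and both stretches of Gm11008. These all lie on chromosome 2. At 336 members, every window around the TSS occurred at a single place, as at Med6, Sox21, Fzd6 and Zfp334. The authors ran Bowtie2 with its default settings, which place a read that matches several places equally well at only 1 of them, picked at random. Whether such reads were filtered later is not given in the sources used here, and their part in the absence of H3K4Me1 at such members was not tested.

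Repeated sequence was most common at CpG-poor members. Of these, 42 of 131 (32.1%) had under 90% of windows at a single place, compared with 10.6% of CpG-poor promoters with H3K4Me1, and the shares at CpG-rich promoters were 8.84% and 3.50%. Among CpG-poor promoters with at least 90% of windows at a single place, H3K27Me3 of either list was found at 8 of 89 members (8.99%, 3.96 to 16.9) and 29.8% (28.0 to 31.7) of the others. Over all promoters of that kind, 388 members and 8243 others, the shares were 21.6% and 31.3%. At this limit, which was set after seeing the data, the share of H3K27Me3 was lower at members as well. The part of repeated sequence in the difference was not tested.

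Of the 10192 autosomal genes with an acetylated promoter, 500 (4.91%) started in a member, and the interval of each of 18 lists of genes with at least 15 acetylated promoters included this share. Housekeeping complexes were represented by single genes for the most part. Cytosolic ribosomal protein genes had 1 member gene among 78 acetylated (1.28%, 0.0325 to 6.94), Rpl22l1, with 4799 bp of H3K27Ac in the female list and 2799 bp in the male list. Mitochondrial ribosomal protein genes had 3 of 75 (Mrpl3, Mrpl44 and Mrps9), genes of the respiratory chain and ATP synthase 4 of 76 (Cox7c, Cycs, Ndufa5 and Ndufb3), and proteasome subunits 1 of 36 (Psmc6). Aminoacyl-tRNA synthetases had 1 of 37 (Wars2), spliceosome proteins 1 of 57 (Snrpb2), DNA replication proteins 1 of 40 (Rpa3), DNA repair proteins 1 of 54 (Atr, the kinase of the replication checkpoint) and ubiquitin-conjugating enzymes 1 of 30 (Ube2j1). No member was found among 26 RNA polymerase subunits (0 to 13.2%), 49 translation initiation factors (0 to 7.25%) and 15 subunits of the anaphase-promoting complex (0 to 21.8%).

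Among the lists with at least 15 acetylated promoters, the highest shares were those of Mediator and of vesicle sorting. Mediator had 3 of 27 genes (11.1%, 2.35 to 29.2), Med6, Med7 and Med30. Med6 had 1799 bp of H3K27Ac in the female list and 2599 bp in the male list, Med7 1199 and 2799 bp, and Med30 799 and 999 bp, all without H3K27Me3. The Vps genes of endosomal sorting had 3 of 28 (10.7%, 2.27 to 28.2), Vps8, Vps13a and Vps36, of which Vps13a carried 399 bp of H3K27Me3 in the female list and 599 bp in the male list. Both intervals include 4.91%. Among zinc finger genes, 13 of 261 started in a member (4.98%, 2.68 to 8.37), including Zfp418 and Zfp759, and 4 of the 13 carried H3K27Me3 in a list, as did 20.3% of all members and 30.2% of all acetylated promoters. Zfp800 had 2199 bp in both lists, Zfp334 2599 bp in the female list alone, Zfp105 199 bp in the female list alone and Zfp821 399 bp in the male list alone. No H3K27Me3 lay over Zfp192, Zfp40, Zfp418, Zfp563 or Zfp759. Replication-dependent histones had 2 of 65, the testis histones Hist1h2aa and Hist1h2ba, which share a stretch of 1799 bp.

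No member was found among 24 acetylated pluripotency regulators (0 to 14.2%) or 12 ES cell markers (0 to 26.5%), whose acetylated promoters thus all touched H3K4Me1 of at least 1 list. Of 31 developmental regulators bound by Polycomb, 5 had an acetylated promoter, as did 10192 of all 21418 autosomal protein-coding genes. Of these 5 regulators, 0 were members (0 to 52.2%). Of 9 regulators with an acetylated promoter that the study lists as higher in XX ES cells, 1 was a member, Zeb1 (0.281 to 48.2%). Of 25 listed as higher in XY ES cells, 0 were members (0 to 13.7%). Each interval includes the 4.91% of all genes with an acetylated promoter. No difference between the XX and XY lists can therefore be read from these counts.

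**Figure D5:**
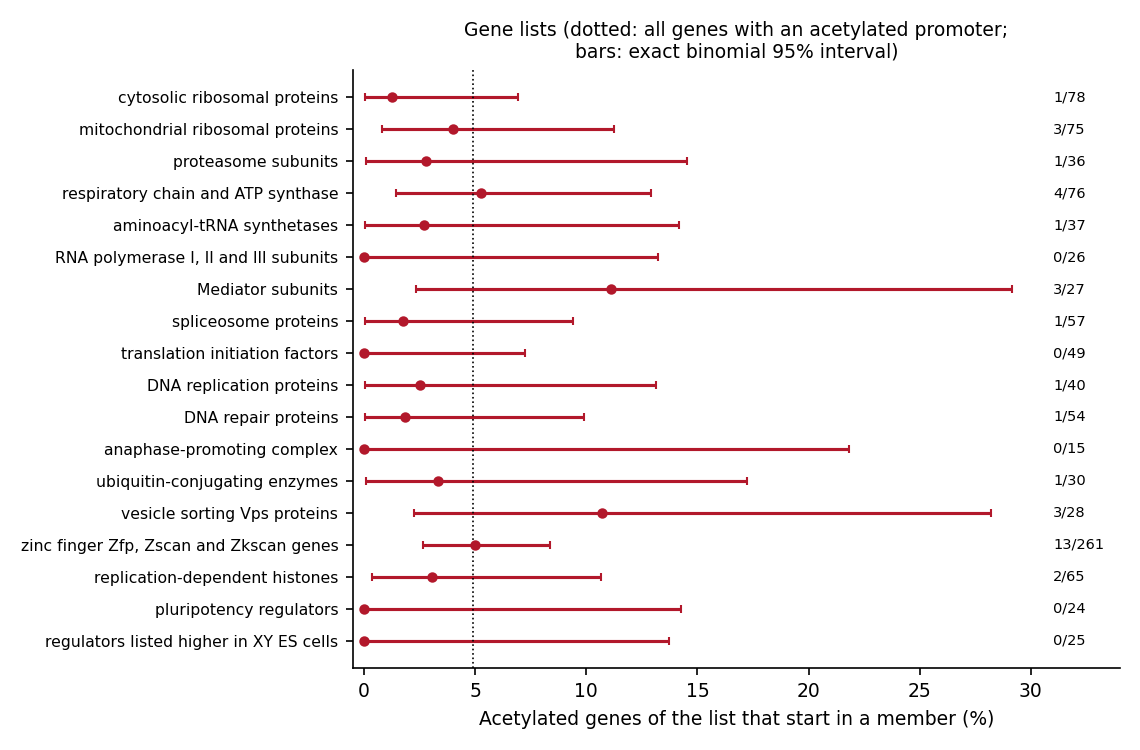
Share of the genes with an acetylated promoter that start in a member (x axis, %) for 18 gene lists with at least 15 such genes (y axis), with counts at the right. Points are shares, bars exact binomial 95% intervals, and the dotted line is the share of all genes with an acetylated promoter, 4.91%, which every interval includes.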

How the data were processed

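ChIP-seq libraries of H3K27Ac, H3K27Me3 and H3K4Me1 were made from 2 female and 2 male mouse ES lines, with 1 IgG and 1 input library per sex. The authors ran Bowtie2 with its defaults to align single-end reads to mm9, measured enrichment with Bedtools and deposited 6 lists of enriched regions, 1 for each mark in each sex, which hold chromosome, start and end in base pairs and no count, score or signal. The submitters' processing notes also name deepTools. Part of each sample was kept as input before precipitation, and IgG served as a control. How regions were called, with which threshold, how IgG and input entered the calls and how lines were pooled is not given in the sources used here.

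Regions were merged and intersected (1 bp) in Python 3.11.15 with numpy 2.4.6, and 4 of 4 counts equalled those of bedtools 2.31.1. The interval code was checked on simulated data. Gene models were GENCODE M1 on NCBIM37, the same assembly as mm9. Shares carry exact binomial (Clopper-Pearson) 95% intervals (scipy 1.17.1) and medians order-statistic intervals. With 1 list per sex and mark, no test was made. Sequence copies were counted as 50-base windows with a perfect match elsewhere on either strand.

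The members, the 23 gene lists and the rules below were chosen with earlier results of these data known. Named were the 10 members with most H3K27Me3 bases, 5 each of the widest, the narrowest, those with most gene starts, with the largest width ratio in each direction, and nearest to and farthest from H3K4Me1, the 5 non-members with fewest H3K4Me1 bases, and up to 6 members per gene list in order of symbol, apart from items that are not reported here. Other names, among them some zinc finger genes, were picked after their values were seen. Alternatives varied merging, the reach of H3K4Me1, the gene starts used, region width and the window for H3K27Me3 and CpG content. Alternatives on region ends, transcript type, gene names and sequence copies were added after seeing the data.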

Additional observations from a re-analysis of the deposited data

Results flagged for a closer look

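Acetylated promoters of the X chromosome lie outside the rule, which was limited to autosomes, and they were flagged because the same pattern appeared there in regions that no comparison used. On the X, 110 of 272 acetylated promoters of both lists held no H3K4Me1 in either list (40.4%, exact binomial 95% interval 34.6 to 46.5), compared with 4.99% on the autosomes. The highest autosomal share was 8.43%, on chromosome 13. Their median width was 2599 bp, against 3599 bp for all 272. H3K4Me1 was found in both lists at 99 of the 272, in the female list alone at 51 and in the male list alone at 12. On the autosomes the lists alone gave 351 and 368 promoters, so the X differed from them in the balance of the sexes as well, a difference that was not tested. H3K27Me3 overlapped 4 of the 110 in the female list and 1 in the male list, and 11 and 6 of all 272, so few acetylated promoters of the X carried it with or without H3K4Me1. Genes among the 110 included Fmr1, which encodes an RNA-binding protein of neurons, Pqbp1, a splicing factor gene, Ikbkg, a subunit of the NF-kappaB activating kinase, and Hccs, the cytochrome c haem lyase gene, which were picked after the set was seen. Male cells carry a single X chromosome, and the part of copy number in these values was not tested.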

How the results depend on the processing

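Of 57 values recomputed under other settings, 42 stayed within 1.5 times the main count or inside the interval of the main value and 15 did not. The share of members with H3K27Me3 was below that of the other promoters in 30 of 30 recomputed values. These values recount largely the same promoters and the same lists, so they are not independent of each other. The number of members, 459, was 1739 with only the widest 50% of each H3K4Me1 list, 21 with only the widest 50% of each H3K27Ac list, 827 with H3K4Me1 of the female list alone and 810 with that of the male list alone. With the widest 50% of H3K4Me1, the median width of H3K27Ac was 2199 bp in the female list and 2399 bp in the male list, still under the 5199 bp of the other promoters in both. H3K27Me3 over at least 50% of the stretch was found at 12.0% of members in either list, 10.9% in the female list and 7.19% in the male list, against 14.1%, 12.5% and 9.25% of the others. With the widest 50% of each H3K27Me3 list the shares were 12.9%, 11.8% and 7.41%, against 21.5%, 18.9% and 13.8%. With all annotated genes, 12.2% of members and 16.1% of the others had a divergent pair. The median CpG ratio was 0.742 at members and 0.732 at the others with 500 bases either side of the TSS, and 0.794 and 0.781 among promoters with at least 90% of windows at a single place, an alternative added after seeing the data. The cause of these shifts was not tested beyond what each setting removes or adds. No paired analysis was possible because each sex and mark has a single list without replicate numbers, and for the same reason no line could be left out. The lists carry no depth, so a weak H3K4Me1 signal below the authors' threshold cannot be told from none.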

Other observations

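Members were spread over all 19 autosomes, with shares of acetylated promoters from 3.04% on chromosome 15 (11 of 362, exact binomial 95% interval 1.53 to 5.37) to 8.43% on chromosome 13 (30 of 356, 5.76 to 11.8). Chromosomes 12 (7.95%, 26 of 327) and 14 (7.08%, 24 of 339) followed. Another member lay within 50 kb of 20 of the 459 members and within 100 kb of 30. No such count was made for other promoters.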
